A study of Homo sapiens with 2 samples.

Results

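Serine and folate metabolism supplies dividing cells with glycine, nucleotide precursors and methyl groups, and the 9 genes described here encode its core enzymes. They are PHGDH, PSAT1 and PSPH of serine synthesis, SHMT2, MTHFD2 and MTHFD1L of the mitochondrial folate branch, and SHMT1, MTHFD1 and TYMS of the cytosolic branch and of thymidylate synthesis. They were taken as a list of symbols out of 19862 protein-coding genes, and all 9 were found in the RefSeq table of GRCh38. Chromatin of H1299, an established line of human non-small cell lung cancer, had been crosslinked with formaldehyde and precipitated with an antibody to H3K18la, the lactylated form of lysine 18 on histone H3. The series holds 1 such library and 1 input library. Both libraries come from this line, and the labels name no treatment. The names of the deposited peaks begin with NC, and what this stands for is not known. The series' design text speaks of IgG where the labels speak of input, so which of these was the control of the peak calls is not known. There were no replicates, no p-value is given, and the depth of either library is unknown.

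Serine is built from a glycolytic intermediate in a short chain of reactions and is then split to glycine by SHMT1 in the cytosol or SHMT2 in mitochondria. The carbon that is released travels on folate, through the MTHFD enzymes, to purines, thymidylate and methionine. Many tumour cells are known for high levels of this pathway. H3K18la is derived from lactate and is known as a mark of active promoters and enhancers in other cells. A peak here is a stretch that the authors' caller listed as enriched, and its fold enrichment is the ratio of the precipitated library to the caller's local background. Peaks were sorted into those within 1000 bp of either end of a gene, those elsewhere in its body, and those outside it within 50000 bp.

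The promoter windows of 5 of these genes are shown because the peaks sit on them in different ways, from full cover to none. Each runs from 250 bases before to 50 bases after an annotated start in the 5′ to 3′ direction of the gene, from RefSeq (GRCh38.p14), and all 5 lie on the plus strand. Capitals mark matches on either strand to CCAAT (bound by NF-Y), GGGCGG (bound by SP1), CACGTG (the E-box bound by MYC and MAX) and TGATGNAAT (a composite site bound by ATF4 with C/EBP partners).
TYMS (chr18:657403-657702): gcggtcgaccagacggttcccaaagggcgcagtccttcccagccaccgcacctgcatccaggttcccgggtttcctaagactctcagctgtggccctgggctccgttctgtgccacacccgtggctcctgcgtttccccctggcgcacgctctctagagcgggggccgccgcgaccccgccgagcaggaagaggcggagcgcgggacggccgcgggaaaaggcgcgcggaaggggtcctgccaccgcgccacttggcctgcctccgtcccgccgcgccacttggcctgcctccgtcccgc
MTHFD1L (chr6:150866236-150866535): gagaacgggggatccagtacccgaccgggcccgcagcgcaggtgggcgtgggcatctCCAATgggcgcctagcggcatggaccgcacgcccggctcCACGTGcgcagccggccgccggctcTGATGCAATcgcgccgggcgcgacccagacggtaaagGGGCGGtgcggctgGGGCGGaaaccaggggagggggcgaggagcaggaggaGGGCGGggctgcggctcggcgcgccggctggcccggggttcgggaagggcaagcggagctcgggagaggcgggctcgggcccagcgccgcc
PSAT1 (chr9:78296875-78297174): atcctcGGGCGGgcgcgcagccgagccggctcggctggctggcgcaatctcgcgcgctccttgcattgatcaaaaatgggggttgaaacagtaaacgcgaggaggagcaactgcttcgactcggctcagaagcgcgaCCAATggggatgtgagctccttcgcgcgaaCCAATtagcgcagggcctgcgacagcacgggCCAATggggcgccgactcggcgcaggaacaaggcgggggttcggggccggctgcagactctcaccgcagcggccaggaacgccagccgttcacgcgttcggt
MTHFD2 (chr2:74198365-74198664): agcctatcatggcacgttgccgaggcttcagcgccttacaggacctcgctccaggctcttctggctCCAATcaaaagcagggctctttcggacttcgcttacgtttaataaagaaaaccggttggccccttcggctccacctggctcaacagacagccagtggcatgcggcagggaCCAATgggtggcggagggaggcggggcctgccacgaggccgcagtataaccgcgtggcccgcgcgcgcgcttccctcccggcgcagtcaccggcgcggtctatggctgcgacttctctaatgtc
PHGDH (chr1:119711684-119711983): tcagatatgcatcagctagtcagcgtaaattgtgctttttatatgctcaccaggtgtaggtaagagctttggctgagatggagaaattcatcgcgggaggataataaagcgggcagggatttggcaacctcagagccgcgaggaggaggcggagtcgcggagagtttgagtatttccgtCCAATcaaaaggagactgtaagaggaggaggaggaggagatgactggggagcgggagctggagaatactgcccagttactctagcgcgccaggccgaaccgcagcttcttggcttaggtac
The windows of TYMS, MTHFD1L and PSAT1 lay under a peak over all 300 bases. In MTHFD2 the peak covered only the last 59 bases, beginning 9 bases before the start. In PHGDH no base was covered, and the peak began 49 bases beyond the window.

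All 9 genes had a peak at an end (100%, exact Clopper-Pearson 95% interval 66.4 to 100), against 59.1% of all 19862 protein-coding genes. Each gene had exactly 1 such peak, and none had a peak at its opposite end. Fold enrichment ran from 5.05 at PSAT1 to 10.4 at TYMS with a median of 7.34, and 8 of the 9 peaks lay above 5.66, the median of the 11741 protein-coding genes with a peak at an end. Widths ran from 841 bp at SHMT2 to 2372 bp at TYMS, with a median of 1582 bp, against 1421 bp over those genes. In falling order the folds were those of TYMS, MTHFD1L, SHMT2, MTHFD2, PSPH, SHMT1, MTHFD1, PHGDH and PSAT1. With 1 library no spread is known, so that no neighbours in this order can be said to differ. The intervals on shares of genes cover counting error only, and genes are not replicates.

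**Figure D1:**
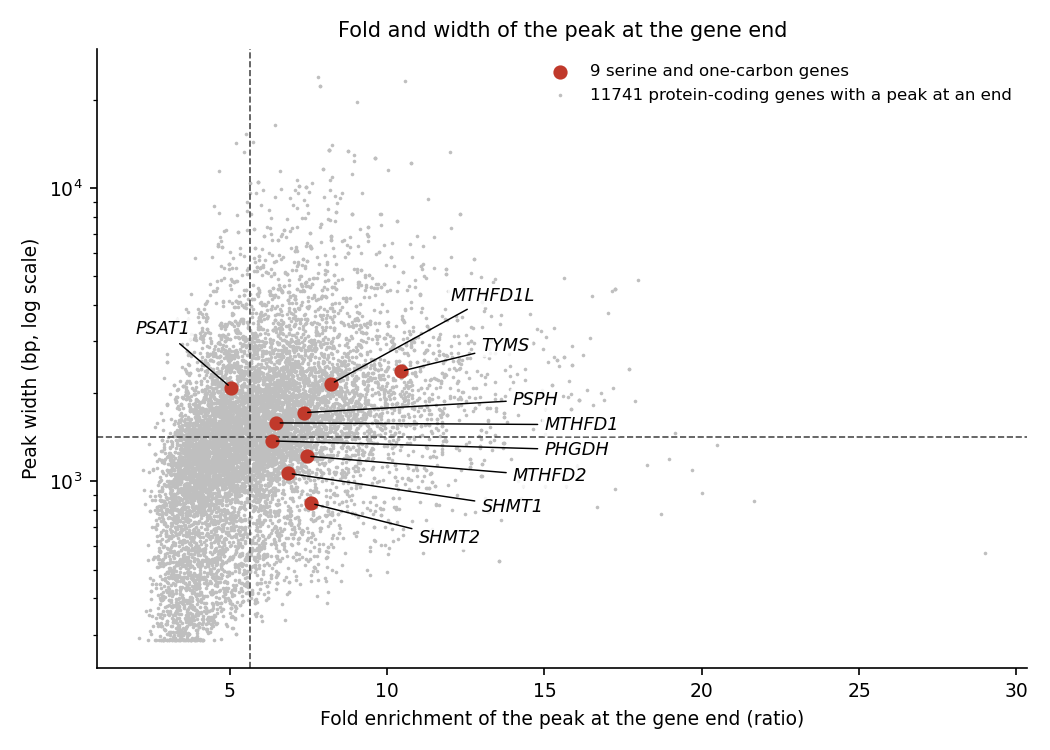
Fold enrichment (x axis, ratio) against peak width (y axis, bp, log scale) of the peak at the gene end, for the 9 genes (red) and for 11741 protein-coding genes with such a peak (grey); where a gene has several, that of highest fold is plotted. Dashed lines mark the medians of the grey points, 5.66-fold and 1421 bp, and PSAT1 alone of the 9 lies left of the fold median.

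In serine synthesis the end peaks had 6.35-fold at PHGDH, 5.05-fold at PSAT1 and 7.34-fold at PSPH. PHGDH encodes the dehydrogenase that commits 3-phosphoglycerate to serine. Its peak (chr1:119712032-119713404, 1373 bp, -log10 q of 12.2) began 98 bp inside the gene (NCBI gene 26227, chr1:119711934-119744215), and 62.6% of the genes with an end peak had a lower fold. The long noncoding gene LOC105378937, which ends just before PHGDH, lay within reach of the same peak. PSAT1, the aminotransferase of the second step (NCBI gene 29968), had the lowest fold of the 9 but a wide peak of 2083 bp (chr9:78296152-78298234, -log10 q of 11.1), wider than those of 77.5% of genes and of higher fold than those of 38.7%. PHGDH and PSAT1 had no other peak in the gene or within 50000 bp. The nearest outside peak lay 63346 bp from PHGDH, at ZNF697 (4.36-fold), and 60424 bp from PSAT1, at CEP78 (6.41-fold).

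PSPH, the phosphatase that releases free serine (NCBI gene 5723, chr7:56011064-56051444), had its peak at the end of higher coordinate (chr7:56050704-56052418, 1715 bp, -log10 q of 21.1). The peak also lay at CCT6A, a chaperonin subunit gene, so that the 7.34-fold cannot be assigned to PSPH alone. A peak of 2.90-fold lay inside PSPH, and 3 peaks of 7.49, 3.71 and 8.31-fold lay outside it, at the ends of NIPSNAP2, CCT6A and SUMF2. PSPH was the only gene of serine synthesis with peaks beyond its end.

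In the mitochondrial folate branch the 3 end peaks lay close together in fold, at 7.57 for SHMT2, 7.44 for MTHFD2 and 8.21 for MTHFD1L. SHMT2 splits serine to glycine in mitochondria (NCBI gene 6472). Its peak of 841 bp was the narrowest of the 9 (chr12:57229697-57230537, -log10 q of 19.6), began 14 bp outside the end of lower coordinate and was no wider than 81.4% of end peaks. MTHFD2, the mitochondrial dehydrogenase and cyclohydrolase (NCBI gene 10797), had a peak of 1219 bp (chr2:74198606-74199824, -log10 q of 22.2). Its only other peak in reach, of 6.65-fold, lay 19734 bp away at MOB1A. MTHFD1L, which releases formate to the cytosol (NCBI gene 25902), had a peak of 2147 bp (chr6:150865265-150867411) with a -log10 q of 34.4, higher than in 89.5% of genes.

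In the cytosolic branch SHMT1 had 6.85-fold, MTHFD1 6.47-fold and TYMS 10.4-fold. SHMT1, the cytosolic counterpart of SHMT2 (NCBI gene 6470, chr17:18327873-18363550), had a peak of 1065 bp that began 50 bp inside the gene (chr17:18362436-18363500, -log10 q of 28.3). MTHFD1, the trifunctional cytosolic folate enzyme (NCBI gene 4522), had a peak of 1582 bp (chr14:64387296-64388877, -log10 q of 19.0). TYMS, the synthase that makes thymidylate for DNA and the target of fluorouracil (NCBI gene 7298, chr18:657653-673578), had the highest fold, the widest peak and the highest -log10 q of the 9, 42.5 (chr18:656800-659171). Only 600 of the 11741 genes had a higher fold. The TYMS peak also covered an end of TYMSOS, a long noncoding gene read in the opposite direction, and a ChIP peak does not tell the strands apart.

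The significance of these peaks did not follow their fold alone. SHMT1 and PHGDH differed little in fold (6.85 and 6.35), but had a -log10 q of 28.3 and 12.2. The control background solved from fold and -log10 p under a Poisson model, in the caller's scaled read units, was 9.31 at SHMT1, the highest of the 9, and 4.86 at PHGDH, the lowest, against a median of 6.53 over end peaks of all genes. It was 8.18 at MTHFD1L and between 5.52 and 7.06 at the other 6 genes. The median over all peaks of the 5 Mb bin that holds the gene was 7.14 at SHMT1 and 5.41 at PHGDH, against 6.09 over the whole list. MTHFD1 had 7.06, in a bin with a median of 6.11, and MTHFD1L had 8.18 in one of 6.18. Gene and bin did not always go together, since SHMT2 had 5.52 in a bin of 7.34 and TYMS 6.75 in one of 7.20. PSAT1, PSPH and MTHFD2 had 6.85, 6.24 and 6.36, in bins of 5.62, 5.65 and 6.19. Since this background is derived from the fold and -log10 p themselves, at like fold it rises with significance by construction. It is not a separate measurement of the control. Because the fold is averaged over the width of a peak, the solved value only approximates the background of the control. The part of background in the significance of these peaks was not tested.

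About the annotated start, the peaks took different forms. RefSeq promoter windows were matched for 7 of the 9 genes, and in all 7 the end peak lay within 1000 bp of the 5′ end and no peak lay at the 3′ end. Over 15841 protein-coding genes with a listed start, 60.3% had a peak at the 5′ end and 7.62% at the 3′ end. The peaks of 5 of the 7 covered the start, as did 82.5% of the 5′ peaks of all genes. In PSAT1, MTHFD1L, MTHFD1 and TYMS 46.7%, 49.7%, 66.8% and 36.0% of the peak lay upstream of it. That of MTHFD1 reached furthest upstream for its width, from 1057 bp before to 524 bp after the start. The MTHFD2 peak also covered the start, but only 0.738% of it lay upstream, and the PHGDH and SHMT1 peaks lay wholly downstream. Less than 10% upstream was thus seen in 3 of 7 members, and in 20.03% of the 9552 genes with a 5′ peak, whose median was 43.5%. SHMT1's peak abutted its promoter window and covered no base of it.

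**Figure D2:**
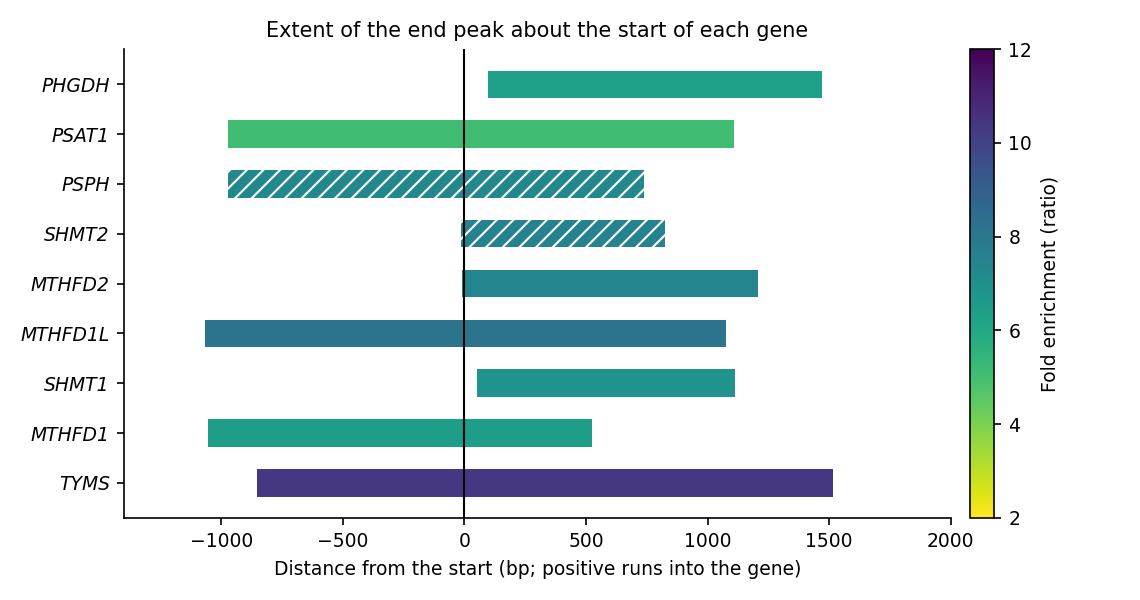
Extent of the end peak of each gene relative to its start (x axis, bp, positive into the gene; vertical line at the start), coloured by fold enrichment (ratio). Solid bars use the first listed start of the 7 genes with a promoter window, hatched bars use the gene end nearest to the peak for PSPH and SHMT2; PHGDH and SHMT1 lie wholly inside the gene and MTHFD2 and SHMT2 begin at its edge.

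The start windows also differed in sequence. CpG dinucleotides numbered 37 in PSAT1, 40 in the MTHFD1L window shown, 34 in TYMS, 20 in MTHFD1 and 27 in MTHFD2, whose peaks covered the start, and 15 in PHGDH and 23 in SHMT1, whose peaks lay downstream. The median was 21 over 22174 windows of protein-coding genes, and the 2 kinds of member overlapped. CCAAT was found in 6 of 7 genes, all but TYMS, compared with 34.6% of all 35116 windows and 34.7% of windows of coding genes with an end peak. PSAT1 had 3 matches, at 113, 83 and 52 bases before its start, and PHGDH had 1 at 71 bases before. MTHFD2 had matches at 184 and 74 bases before the start, in the part of its promoter that its peak did not cover, and SHMT1 had them at 76 and 25 bases before. GGGCGG was found in 3 of 7 genes (PSAT1, MTHFD1L and SHMT1), compared with 45.0% of all windows and 67.7% of windows of coding genes with an end peak. CACGTG was found in MTHFD1L and MTHFD1 (7.26% of all windows and 9.63% of those of coding genes with an end peak). TGATGNAAT was found in MTHFD1L only, 129 bases before the start of the window shown (0.991% of all windows and 0.457% of those of coding genes with an end peak). Counted from the first listed start (150866333), from which the extent of the peak was measured, the same match lay downstream, at position 25. No match overlapped another motif. The TYMS window, under the strongest peak, held none of the 4 motifs. MTHFD1L counts through any of its 4 windows, 3 of which overlap. A match is a description of the letters, not of binding.

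Inside the genes, away from the ends, 4 of the 9 had a peak (44.4%, exact interval 13.7 to 78.8), against 24.8% of all protein-coding genes. That share lies inside the interval. Among genes of 0.5 to 2 times the length, 28.6% had a body peak for PSPH, 26.8% for SHMT1, 39.7% for MTHFD1 and 61.2% for MTHFD1L. For the members without a body peak, this share ran from 4.06% (SHMT2) to 25.7% (PSAT1). The 12 body peaks of the 4 genes had a median of 3.65-fold, against 7.34 for the 9 end peaks. MTHFD1L held 8 of them, MTHFD1 held 2 (3.38 and 3.42-fold), and PSPH and SHMT1 held 1 each (2.90 and 3.22-fold). Where a -log10 q of 5 or more was asked for, MTHFD1L was the only gene of the 9 with a body peak (1 of 9, against 16.5% of all genes).

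**Figure D3:**
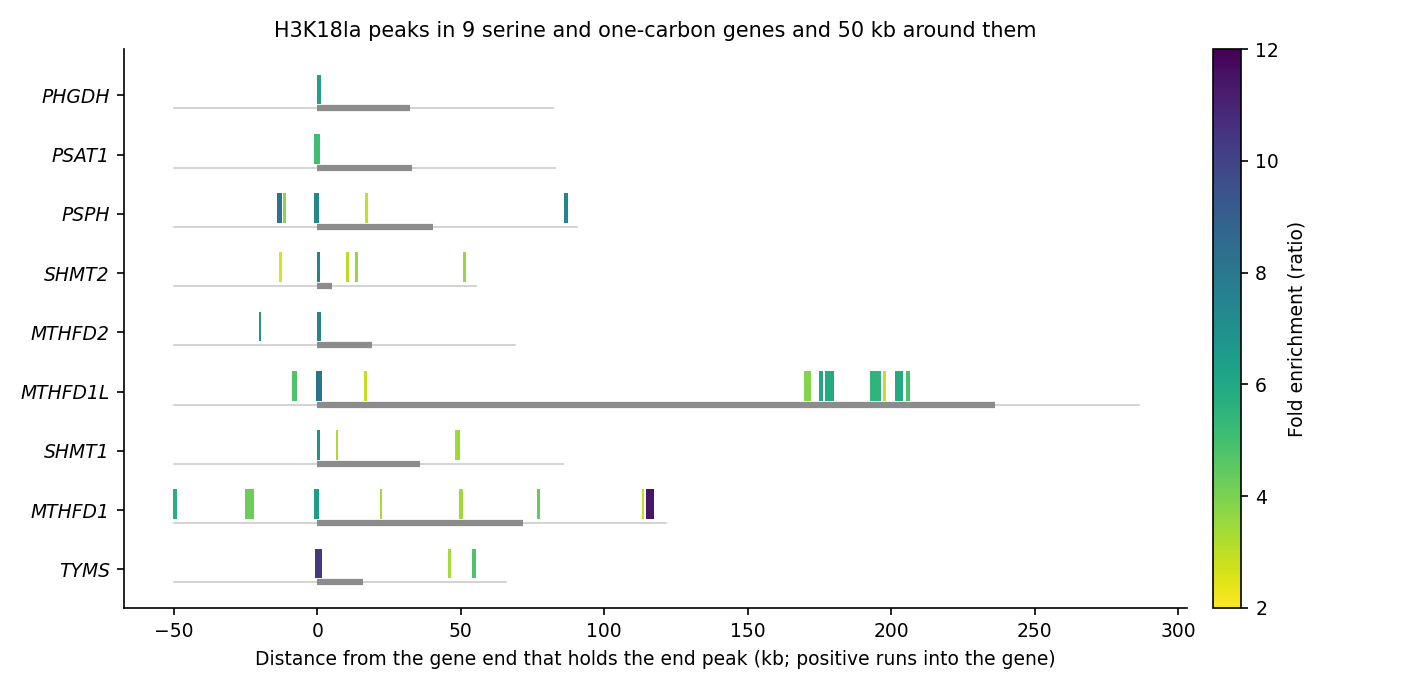
All 39 peaks at the ends, in the bodies and within 50 kb of the 9 genes (x axis, kb from the gene end that holds the end peak, positive into the gene), coloured by fold enrichment (ratio). Thick grey lines are genes and thin lines their flanks; narrow peaks are widened to stay visible. PHGDH and PSAT1 have only their end peak, while MTHFD1L has 7 peaks near its far end.

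The body peaks of MTHFD1L gathered far from its start. After a peak of 2.95-fold near the start, 152797 bp held none, and then 7 peaks followed within 36860 bp (chr6:151035271-151072130), 169569 to 206428 bp from the gene's end of lower coordinate. Their folds were 3.87, 6.04, 5.89, 5.48, 2.89, 5.88 and 4.90, all below the 8.21 of the start peak. They covered 42.1% of that stretch, and the widest, of 5.48-fold, was 4000 bp. Of the 7, 5 had a -log10 q of 5 or more. The solved background of the 7 had a median of 5.70, below the 8.18 of the start peak. RefSeq lists an inner start at 151007008, and the nearest peak lay 28263 bp beyond it. No end of another annotated gene lay within 1000 bp of any of the 7 peaks. MTHFD1L is long, at 236186 bp, and long genes hold more peaks. At least 8 body peaks were found in 143 protein-coding genes (0.72%), and in 96 of the 1111 genes at least as long as MTHFD1L, whose median was 1. Exons and introns were not assigned, since the table gives gene spans only.

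**Figure D4:**
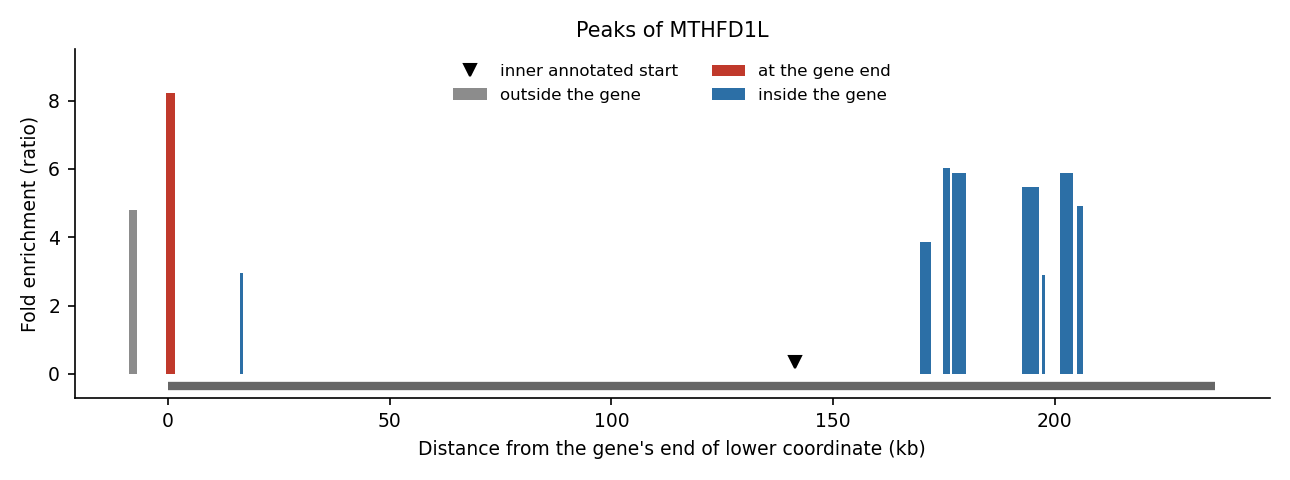
Fold enrichment (y axis, ratio) of the 10 peaks in and near MTHFD1L by distance from its end of lower coordinate (x axis, kb); the grey line is the gene and the triangle the inner annotated start. The start peak stands at 8.21, and 7 peaks between 2.89 and 6.04 lie together between 169569 and 206428 bp; narrow peaks are widened to stay visible.

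Outside the genes but within 50000 bp, 7 of the 9 had a peak (77.8%, exact interval 40.0 to 97.2), against 70.3% of all protein-coding genes, a share near the background. Of these 18 peaks, 14 lay at the end of another annotated gene. The same share over all peaks is not given, so this count is not read as a trait of these genes. The strongest, of 11.4-fold and 2732 bp, lay 43019 bp beyond MTHFD1 at ZBTB25 and ZBTB1, genes of zinc finger factors, and was above the 6.47-fold of MTHFD1's own peak. MTHFD1 had the most peaks in its flanks, 5, which included 1 of 5.70-fold at ESR2 and 1 of 4.38-fold at AKAP5. SHMT2 had 4 of 2.51 to 3.58-fold, of which 3 lay at NXPH4, COXFA4L2 and STAC3. SHMT1 had a pair of 3.58 and 3.35-fold at TOP3A and SMCR8. SMCR8 overlaps the 3′ end of SHMT1, where no peak lay. TYMS had 1 of 3.35-fold and 1 of 4.80-fold at the far end of ENOSF1, a gene that overlaps it, and MTHFD1L had 1 of 4.81-fold at LOC124901431. Peaks covered between 1.04% (PHGDH) and 7.12% (MTHFD1) of the genes with their flanks, with a median of 2.83%, against a median of 2.26% over all protein-coding genes.

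Beyond the 9 genes, 32 of 45 other genes of serine, folate and methyl group metabolism and its regulators had a peak at an end (71.1%, exact interval 55.7 to 83.6), against 59.1% of all protein-coding genes, a share inside that interval. Counting only peaks above the median fold of all peaks, it was 20 of 45 (44.4%), against 45% of all genes. The median fold of the 32 was 4.77, and for 10 of them the peak also lay at another annotated gene. Of the transporters 5 of 7 had a peak, with the neutral amino acid carriers SLC1A4 (8.70-fold) and SLC1A5 (8.01-fold) and the mitochondrial folate carrier SLC25A32 (6.55-fold, also at DCAF13) highest. SFXN1, which takes serine into mitochondria, had 6.23-fold. None lay at the ends of FOLR1 and of the reduced folate carrier SLC19A1, although SLC19A1 held 4 inside, of up to 7.67-fold. Of the other folate enzymes 6 of 8 had a peak at an end, led by MTHFS (7.43-fold) and the folylpolyglutamate synthase FPGS (5.86-fold). FTCD and ALDH1L1 had none at an end, although FTCD held 2 inside. All 4 genes of the glycine cleavage system had end peaks of 3.67 to 4.70-fold, below those of all 9 members. GLDC also held 1 peak inside, of 5.44-fold, and the AMT end peak also lay at NICN1. Of 6 purine synthesis genes 5 had a peak, with ATIC at 8.13-fold (also at LOC124907975), GART at 6.71-fold (also at SON) and PFAS at 5.24-fold (also at CTC1). PAICS had none at the ends of its annotated span (chr4:56410507-56464578), but the PPAT peak of 4.64-fold (chr4:56434809-56437783) lay inside that span. Whether an inner start of PAICS lies under that peak was not examined.

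In the methionine cycle and transsulfuration 4 of 10 genes had a peak at an end, against 59.1% of all protein-coding genes. MAT2A, which makes S-adenosylmethionine in most tissues, had 11.8-fold (also at PARTICL), MTR 4.68-fold and CTH 4.13-fold. None lay at the ends of BHMT, CBS, GNMT, MAT1A, MAT2B and MTRR. MAT2B and MTRR each held 1 peak inside, of 4.63 and 3.965-fold. Of 7 genes of serine use and breakdown 5 had a peak, led by the racemase SRR (6.73-fold, also at SMG6) and the sphingolipid synthesis subunit SPTLC2 (5.71-fold), with none at DMGDH and SARDH. The 3 regulators known to act on these genes all had a peak, NFE2L2 of 12.6-fold, ATF4 of 9.59-fold (also at MIEF1) and MYC of 4.72-fold (also at CASC11).

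**Figure D5:**
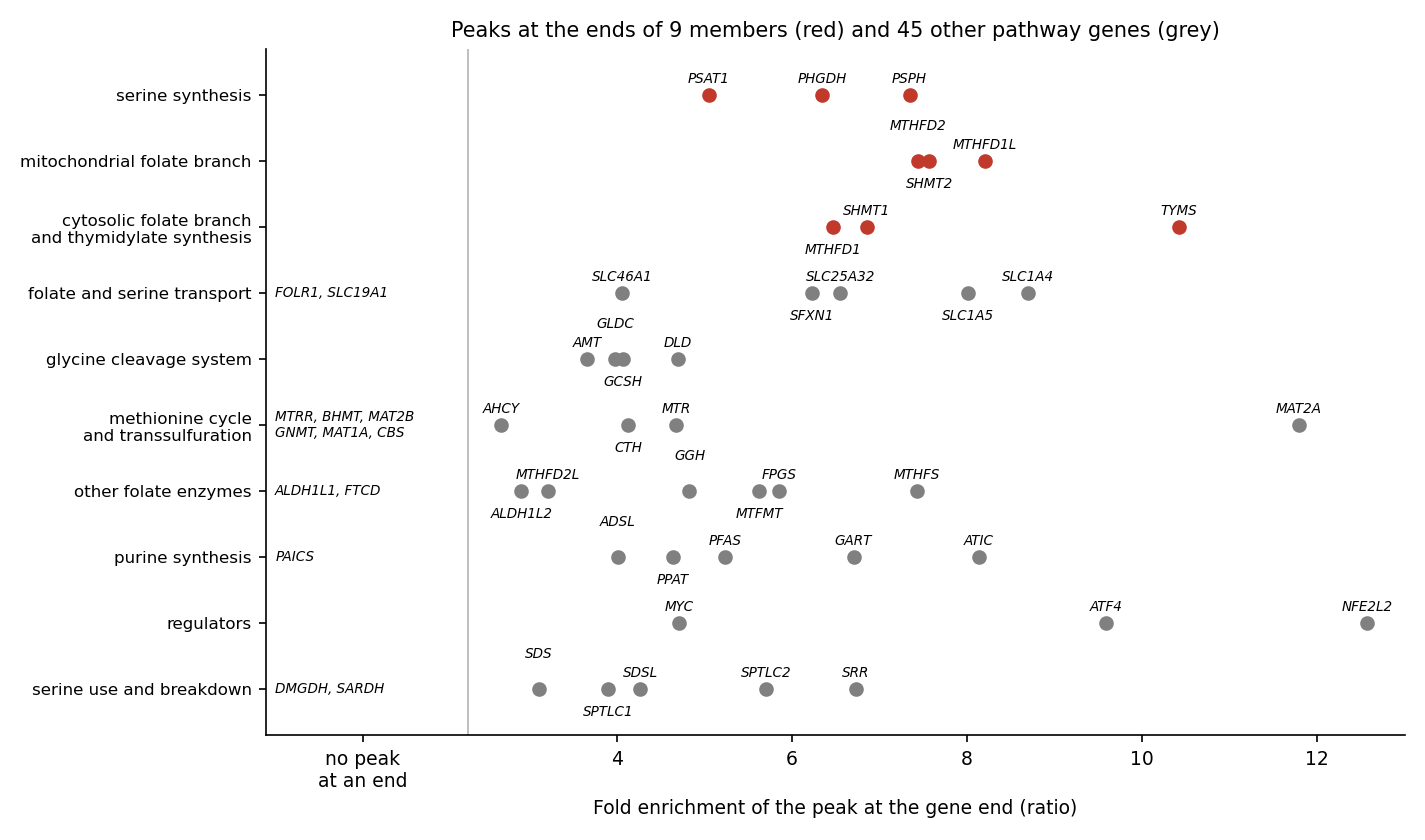
Fold enrichment (x axis, ratio) of the peak at the gene end for the 9 genes (red) and 45 other pathway genes (grey), by role; genes with no peak at an end stand left of the vertical line. The 9 lie between 5.05 and 10.4, and the 32 grey points between 2.68 and 12.6.

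Pairs of enzymes that carry out like reactions differed in their peaks. MTHFD2 had 7.44-fold over 1219 bp, and its paralog MTHFD2L 3.22-fold over 374 bp (-log10 q of 2.21), with no peak within 1000 bp of its first listed start. Inside the gene MTHFD2L held 4 peaks, of up to 5.65-fold, and MTHFD2 held none. ALDH1L2, the mitochondrial formyltetrahydrofolate dehydrogenase, had 2.91-fold over 293 bp and its cytosolic counterpart ALDH1L1 had none. SHMT2 and SHMT1 differed less, with 7.57 and 6.85-fold. None of these pairs could be tested, since each value comes from the same single library.

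The table of genes names 16 pseudogene copies of 6 of the 9 genes, most of them of MTHFD2 and PSAT1, and none had a peak at its ends or in its body. The share of all pseudogenes with a peak is not given, so this absence is not read as a trait of these copies. How reads that match several copies were placed was not examined.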

How the data were processed

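The deposited file is a MACS2 broad peak list of the anti-H3K18la library with no header. Per the submitters' processing notes, reads were prepared with bcl2fastq 2.17, cutadapt 1.18 and Trimmomatic 0.38 and aligned with Bowtie2 2.3.4.1 to hg38; Picard, MACS2 (2.1.2 and 2.1.0) and ChIPseeker are also named. The caller's settings are not given in the sources used here. In the deposited list each peak has a fold enrichment, a ratio averaged over its width, a -log10 p and -log10 q, and a score equal to 10 times -log10 q, rounded down, in 99.98% of peaks. The largest q was 0.0472.

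The 28695 peaks were compared with RefSeq gene spans (GRCh38.p14), after 831 of 59788 placed entries on other sequences were left out. An overlap of 1 bp counted, and the end peak of highest fold was taken. Shares have exact binomial intervals (scipy 1.17.1). With no replicates no test was made. Background was solved from fold and -log10 p. The code was tested on simulated data. The 9 genes and the pathway list were chosen with earlier results of these data known, and some genes of the pathway are not reported here. Named were the 9 genes, from each role up to 3 genes of highest fold and all with no end peak, and genes at member peaks; others were named after their values were seen. Alternatives covered window, threshold, overlap rule, distance and gene end. Coordinates count from 1.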

Additional observations from a re-analysis of the deposited data

How the results depend on the processing

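All 9 members kept their end peak with windows of 500 and 3000 bp, at a -log10 q of at least 5, above the median fold of the list (4.36), and when the midpoint or 50% of the peak had to lie in the window, where 57.7%, 62.4%, 52.4%, 45%, 54.8% and 53.9% of all genes did. The count was 7 of 7 with the 5′ end only. The fold of each member was the same under all 27 alternatives tried for single genes, but in large part by construction. Each member had exactly 1 end peak, so the widest end peak was always the same peak. That peak also reached within 500 bp of the gene end, so the shorter window kept it. The window of 3000 bp loses no peak, and it alone was open to a further one. It brought in none of higher fold. Of the 4 counts that moved by more than 1.5 times, 2 concern body peaks, which were found in 1 of 9 members at a -log10 q of at least 5 and in 1 of 9 above the median fold (against 16.5% and 13.2% of all genes). Peaks in the flanks were found for 3 of 9 members within 10000 bp (against 30.2%). The other pathway genes with an end peak numbered 20 of 45 above the median fold (44.4%, against 45% of all genes). The lower counts follow from the alternatives' own construction, with fewer peaks or a shorter distance. The depth of the library is unknown, so a missing peak is not a missing mark. No paired analysis was possible because each group holds 1 library and no test was made.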

Other observations

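MAT1A and MAT2A, which encode the liver form and the widely expressed form of the enzyme that makes S-adenosylmethionine, differed in their peaks; the pair was chosen after their values were seen. MAT2A had 11.8-fold over 2703 bp, with 6 further peaks in its flanks, and MAT1A had no peak in the gene or within 50000 bp. The list also holds SDS, known for expression mainly in liver, which had an end peak of 3.11-fold. That peak had a -log10 q of only 1.81 and lay just outside the gene. Others known for expression mainly in liver had no end peak, such as BHMT and GNMT. FTCD had no end peak, but 2 peaks lay inside it, the stronger of 8.91-fold.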
